A study of Mus musculus with 8 samples.

Results

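Keratins, the desmosome genes that anchor them, the plakins that link them to the cell cortex and the genes of the cornified envelope were followed in the distal colon of WT and *Hsf1* null mice. Members were taken by symbol from the deposited count table: keratin genes (*Krt* with a number), desmogleins and desmocollins (*Dsg*, *Dsc*), the small proline-rich genes (*Sprr*), plakophilins (*Pkp*), and *Dsp*, *Jup*, *Evpl*, *Ppl*, *Eppk1*, *Plec*, *Dst*, *Lor* and *Ivl*. The symbols matched 46 of the 15859 genes, and 35 of the 46 passed the filter on low counts that left 14371 genes for testing. *Ivl* and several keratins that define stratified squamous epithelium (*Krt1*, *Krt4*, *Krt5*, *Krt6a*) were not analysed here.

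Keratins are obligate heteropolymers: each filament pairs a type I chain with a type II chain. Simple, single-layered epithelia such as that of the colon build them from KRT8 with KRT18, KRT19 or KRT20, whereas stratified squamous epithelia, among them the lining of the anal canal, use other pairs. Desmosomes join the filaments of neighbouring cells through cadherins (desmogleins, desmocollins) and a plaque of plakoglobin, plakophilins and desmoplakin. The cornified envelope, a shell of cross-linked loricrin, envoplakin, periplakin and small proline-rich proteins, belongs to the skin, but some *Sprr* genes are also known to be switched on in the intestinal epithelium.

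The libraries came from the distal colon of 8 males, 2 in each of 4 groups: untreated WT (WT day 0), untreated *Hsf1* null (null day 0), AOM–DSS treated WT (WT day 15) and AOM–DSS treated *Hsf1* null (null day 15). All mice were WT or null littermates on a mixed BALB/c x 129SvEV background, and their age is given as 10 weeks. Treated mice were injected once with the carcinogen azoxymethane (AOM) at 10 mg/kg and then drank water with 1.5% dextran sulfate sodium (DSS), an agent that damages the colon epithelium, for 5 days. Untreated mice received neither. By their titles the treated samples are from day 15, although the protocol in the labels ends with the last day of DSS. *Hsf1* encodes heat shock factor 1 and was lost from every cell of the null mice, so that a difference between genotypes cannot be assigned to the epithelium. Whole tissue was homogenised, and fewer epithelial cells and less RNA per epithelial cell cannot be told apart. Each animal gave 1 library, and p-values measure the spread between 2 animals per group with the spread shared across genes.

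Total counts per library were between 2553348 and 12440257, and the 2 smallest were those of replicate 2 in each untreated group. Levels are CPM, counts scaled to library sizes adjusted by TMM, a method that takes most genes as equal between libraries. *Hsf1* at day 15 was at 50.4 and 45.9 CPM in WT mice, above the 13.5 and 9.09 CPM of null mice (log2 fold change 2.10, standard error (SE) 0.30, adjusted p = 0.0137), which fits the genotype in the labels. All 12 markers of columnar colon epithelium (among them *Epcam*, *Cdh1* and *Vil1*) were counted in every library, with a summed level of 5246 to 7661 CPM at day 0 and, at day 15, 5578 and 6056 CPM in WT mice against 7465 and 10503 CPM in null mice. At day 15, 12 of 12 were lower in WT than in null mice (median log2 difference -0.67). Of these, edgeR called 0 (3.17% of all genes), and 3 had an unadjusted p under 0.05 by edgeR (23.2%). DESeq2 called 1 (8.67%). The columnar markers thus shared a direction, with calls at about the rate of all genes. Refits scaled to these markers are given below. Those refits also moved the median of all genes, and the markers' own part in the member differences was not tested. Summed markers of smooth muscle were between 6851 and 9802 CPM at day 0, 2121 and 3676 CPM in WT day 15 and 5308 and 6080 CPM in null day 15 mice. Summed markers of leukocytes were between 795 and 2488 CPM at day 0, 2196 and 5973 CPM in WT day 15 and 3081 and 2174 CPM in null day 15 mice. Leukocyte markers were higher in WT than in null mice for 8 of 8 on both days. The median log2 difference was 0.80 at day 0 (0 called by edgeR) and 1.68 at day 15. At day 15, 0 were called by edgeR (3.17% of all genes), and 6 had an unadjusted p under 0.05 by edgeR (23.2%). DESeq2 called 4 there (8.67%). In WT mice 8 of 8 were higher at day 15 than at day 0 (median log2 change 1.64). Of these, 2 were called, where 3.47% of all genes were called higher. Their part in the member differences was not tested.

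Of the 11 members called higher after treatment over both genotypes, 5 were *Sprr* genes of chromosome 3, and the start regions of 4 of these are shown because they share a short motif. Each sequence covers 250 bases before and 50 bases after the annotated start (RefSeq, GRCm38.p6), and capitals mark matches to TGANTCA, the core bound by AP-1 factors, searched on both strands. The regions are chr3:92316455-92316754 (plus strand) for *Sprr2b*, chr3:92385435-92385734 (plus strand) for *Sprr2h*, chr3:92432332-92432631 (plus strand) for *Sprr2k* and chr3:92485832-92486131 (minus strand) for *Sprr1a*.
Sprr2b: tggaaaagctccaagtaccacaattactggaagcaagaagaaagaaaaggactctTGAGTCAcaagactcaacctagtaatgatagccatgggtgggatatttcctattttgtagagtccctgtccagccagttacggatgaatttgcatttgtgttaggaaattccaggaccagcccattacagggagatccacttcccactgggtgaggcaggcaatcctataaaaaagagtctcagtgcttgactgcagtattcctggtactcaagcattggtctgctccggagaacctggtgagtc
Sprr2h: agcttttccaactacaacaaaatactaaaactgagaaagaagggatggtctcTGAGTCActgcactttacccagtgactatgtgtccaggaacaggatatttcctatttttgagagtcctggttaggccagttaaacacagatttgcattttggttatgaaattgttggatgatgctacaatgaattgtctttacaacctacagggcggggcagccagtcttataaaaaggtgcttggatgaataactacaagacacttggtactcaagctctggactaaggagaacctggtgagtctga
Sprr2k: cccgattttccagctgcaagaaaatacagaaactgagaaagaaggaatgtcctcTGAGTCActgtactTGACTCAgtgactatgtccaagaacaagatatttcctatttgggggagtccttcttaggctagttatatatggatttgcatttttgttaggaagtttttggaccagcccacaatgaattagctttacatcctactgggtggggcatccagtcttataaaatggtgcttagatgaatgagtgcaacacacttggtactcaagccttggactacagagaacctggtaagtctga
Sprr1a: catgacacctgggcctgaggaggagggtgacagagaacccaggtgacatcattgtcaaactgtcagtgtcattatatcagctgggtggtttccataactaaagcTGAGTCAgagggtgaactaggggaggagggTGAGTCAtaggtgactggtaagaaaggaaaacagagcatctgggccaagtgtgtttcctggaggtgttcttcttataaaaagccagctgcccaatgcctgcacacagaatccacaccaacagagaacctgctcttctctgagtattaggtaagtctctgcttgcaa
In *Sprr2b*, *Sprr2h* and *Sprr2k* a match began 195, 198 and 196 bases before the start, and in *Sprr2k* another began 182 bases before it. In *Sprr1a* matches began 146 and 116 bases before the start. Aligned end to end, the *Sprr2h* and *Sprr2k* regions were identical in 81.8% of columns and those of *Sprr2b* and *Sprr2h* in 64.8%, so matches in these copies of one gene are not separate observations. The *Sprr1a* region was identical to that of *Sprr2h* in 49.6% of columns.

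Promoter sequences were on hand for 26 members (29 promoters). The AP-1 core was in 10 of these 29 promoters (34.5%), against 7.81% of all 32851 promoters of the same length; 6 of the 10 belong to *Sprr2* genes and the others to *Sprr1a*, *Lor* and, with 2 promoters, *Krt13*. GAANNTTC, a core of the element that HSF1 binds, was in 3 of 29 member promoters (10.3%; *Krt12*, *Krt20* and *Sprr2a3*) and in 7.86% of all promoters. TTCNNNGAA, a core bound by STAT factors, was in 1 of 29 (3.45%; *Sprr2a3*) and in 8.30% of all. A match describes letters in the window and does not show that a factor binds there.

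Some keratins and *Sprr* genes rose with treatment in both genotypes. Of the 35 tested members, 23 in WT and 27 in null mice had a positive log2 change. A gene was called at a Benjamini-Hochberg adjusted p under 0.05 (edgeR's quasi-likelihood test, 1 model of all 8 libraries) with an absolute log2 fold change above 1. Averaged over the genotypes, 11 of 35 tested members were higher at day 15 than at day 0 and 0 were lower, whereas 8.04% of all tested genes were called higher and 8.32% lower (16.4% in all). The 11 were *Krt7*, *Krt13*, *Krt14*, *Krt36*, *Krt84*, *Krt85*, *Sprr1a*, *Sprr2a3*, *Sprr2b*, *Sprr2h* and *Sprr2k*, and each had its 4 treated mice above its 4 untreated mice. At an unadjusted p under 0.05, 15 members were higher and 2 (*Dst* and *Krt10*) lower, where 43% of all genes passed in either direction. DESeq2 called 12 higher and 0 lower (17.5% of all genes in either direction). In WT mice alone 7 members rose and 0 fell, against 3.47% and 4.27% of all genes (7.74% in all), and DESeq2 called 9 higher and 1, *Eppk1*, lower (12.6% in all). In *Hsf1* null mice alone 8 rose and 0 fell, against 5.3% and 6.48% of all genes (11.8% in all), and DESeq2 called 13 higher and 0 lower (16.6% in all). These counts within a genotype fell with single mice left out. In WT mice most or all of the 7 calls were lost without either untreated mouse or without WT day 15 replicate 2. In null mice the same held without null day 0 replicate 2 or null day 15 replicate 2. Each of these fits leaves 1 mouse in a group, and fewer of all genes were called in it too. The losses are thus not particular to the members. The count over both genotypes was 9 to 14 with each mouse left out, and of the 11 only *Krt14* and *Krt85* lost that call in any of these fits. The median log2 change over the 35 tested members was 0.57 in WT and 1.00 in null mice, where the medians over all tested genes were 0.0046 and 0.052. Members at few counts at day 0 passed the filter on low counts through their day 15 level, so the number of tested members that rose is partly set by that filter.

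Between the genotypes, 1 of 35 members was called at day 15, *Eppk1*, which was lower in WT mice, against 1.25% of all genes called higher and 1.91% called lower in WT (3.17% in all). At an unadjusted p under 0.05, 4 members were higher and 8 lower in WT at day 15 (23.2% of all genes passed in either direction). DESeq2 called 1 higher (*Sprr2h*) and 4 lower (*Dsg2*, *Eppk1*, *Evpl* and *Krt17*), against 8.67% of all genes to which it gave an adjusted p. At day 0 the count was 0 of 35, as it was for 0% of all genes in either direction (0% higher, 0% lower) by edgeR. There 904 genes, 2 members among them (*Sprr1a* and *Sprr2a3*), had an unadjusted p under 0.05 (6.29%), and DESeq2 called 18 genes (0.136%) but 0 members. The response to treatment was called different between the genotypes for 0 members by edgeR (0.00696% of all genes, which is 1 gene). DESeq2 called 0 of the 23 members to which it gave an adjusted p and 130 genes in all (1.15%). Before adjustment 4 members were under 0.05 by edgeR (8.61% of all genes), *Eppk1*, *Dsg2*, *Krt17* and *Evpl*, and after it their values were 0.456, 0.502, 0.51 and 0.575. Each of the 4 had the more positive change in the null mice.

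**Figure D1:**
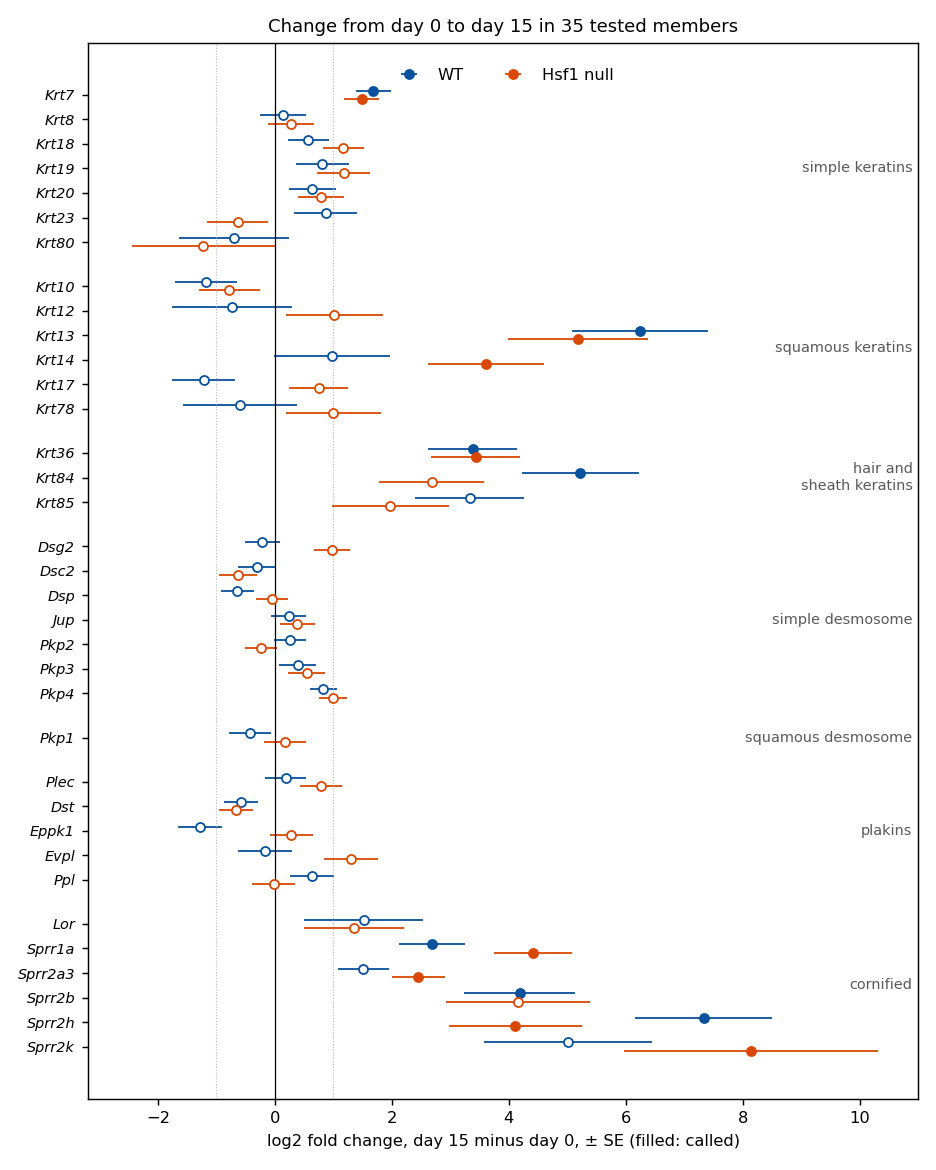
Log2 fold change from day 0 to day 15 (horizontal axis) of the 35 tested members (vertical axis, grouped by role) in WT and Hsf1 null mice, 2 mice per group and day. Points are fitted values with their standard error, and filled points passed the call; Krt13, Krt85, Sprr2b, Sprr2h and Sprr2k had 0 to 4 counts over a day 0 group, and their fitted values depend on the prior count. Cornified genes, Krt13 and the hair keratins lie to the right of 0 in both genotypes, and no desmosome gene has a filled point.

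Keratins of simple epithelium made up nearly all keratin RNA, and of these *Krt7* rose. Of 7 simple keratins (*Krt7*, *Krt8*, *Krt18*, *Krt19*, *Krt20*, *Krt23*, *Krt80*), 1 rose in each genotype and 0 fell, and the median log2 change was 0.64 in WT and 0.79 in null mice. *Krt8*, the type II chain that pairs with the other 3 abundant chains, was at 3435 and 5600 CPM in WT day 0, 6565 and 4661 in null day 0, 4798 and 5175 in WT day 15 and 7501 and 6027 CPM in null day 15 mice. Its groups overlapped between days in both genotypes (log2 change 0.14, SE 0.39, in WT and 0.27, SE 0.39, in null mice), and adjusted p-values were 0.845 and 0.672. A share of 26.9% of the 50-base windows of *Krt8* transcripts also occurs in a processed copy, *Krt8-ps*, so its level depends on how shared reads were counted.

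*Krt19*, a type I chain without the tail domain of other keratins, was at 3154 and 4235 CPM in WT day 0, 5680 and 2413 in null day 0, 6230 and 6739 in WT day 15 and 9619 and 8702 CPM in null day 15 mice. All 4 treated mice lay above all 4 untreated mice, and the average log2 change was 0.995 (SE 0.32, adjusted p = 0.0405), just under the fold threshold. *Krt18*, the classic partner of KRT8, was at 299 and 509 CPM in WT day 0, 578 and 333 in null day 0, 565 and 635 in WT day 15 and 955 and 1094 CPM in null day 15 mice, with an average log2 change of 0.87 (SE 0.25, adjusted p = 0.0268). Both genes thus passed on p and missed on size over both genotypes by edgeR, and in neither genotype alone was its adjusted p under 0.05 (lowest 0.0546, *Krt18* in null mice). DESeq2 called both higher in null mice (adjusted p = 0.00784 for *Krt18* and 0.0107 for *Krt19*) and *Krt19* over both genotypes. So did edgeR for *Krt19* over both genotypes when it used DESeq2 size factors or no filter on low counts. *Krt20*, the type I chain of differentiated cells at the colon surface, was at 338 and 371 CPM in WT day 0, 553 and 542 in null day 0, 300 and 805 in WT day 15 and 950 and 940 CPM in null day 15 mice. The 2 treated WT mice lay on either side of the untreated WT mice, and the average change did not pass (log2 0.71, SE 0.28, adjusted p = 0.0791).

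*Krt7*, a type II keratin of ducts and of the urothelium, was at 64.1 and 93.2 CPM in WT day 0, 72.0 and 44.9 in null day 0, 266 and 235 in WT day 15 and 151 and 179 CPM in null day 15 mice. The days did not overlap in either genotype, and the log2 change was 1.68 (SE 0.30, adjusted p = 0.0136) in WT and 1.48 (SE 0.30, adjusted p = 0.0198) in null mice. At day 15 the WT mice lay above the null mice, but the difference did not pass (log2 0.60, SE 0.29, adjusted p = 0.238), nor did the changes differ between genotypes (log2 0.20, SE 0.41, adjusted p = 0.912). The call in WT mice was lost without either untreated WT mouse or WT day 15 replicate 2, and the call in null mice without replicate 2 of either null group. Scaled to the 12 markers of columnar epithelium in place of all genes, the average log2 change of *Krt7* was 1.44 (adjusted p = 0.0045) and the call in null mice alone was lost. *Krt23* was at 2.38 to 7.47 CPM and *Krt80* at 0 to 2.16 CPM over the 8 mice, and neither passed a test.

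**Figure D2:**
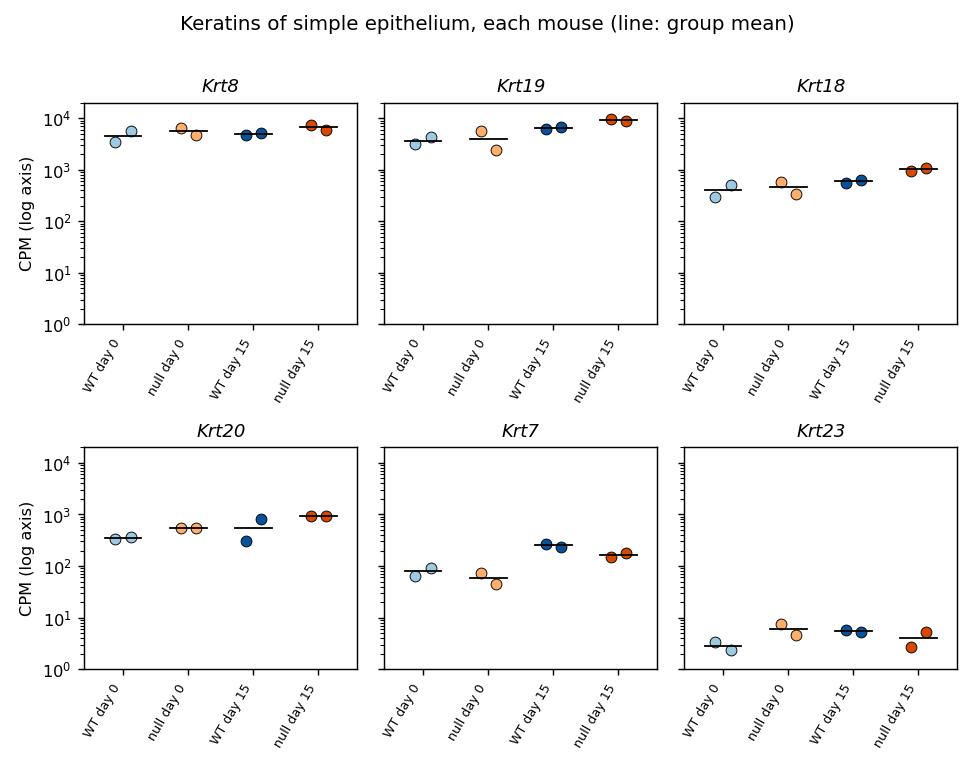
CPM (log axis) of 6 simple keratins in each of the 8 mice by group, with a line at each group mean. Krt7 is higher in all 4 treated mice (151 to 266 CPM) than in the untreated ones (44.9 to 93.2 CPM), Krt19 separates the days by less, and Krt8 overlaps.

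Levels of different keratins can be compared only per length, here CPM per kb of the principal GENCODE transcript. On that scale *Krt19* (1531 to 6103 CPM per kb) and *Krt8* (1754 to 3831 CPM per kb) were highest and overlapped. *Krt8* was the higher in replicate 2 of both untreated groups and *Krt19* in the other 6 mice. They were followed by *Krt18* (208 to 762 CPM per kb) and *Krt20* (156 to 493 CPM per kb), whose ranges overlap. *Krt19* made up 74.8% to 87.7% of the summed type I chains and *Krt8* 97.4% to 99.5% of the type II chains. The share of *Krt7* in the type II chains was 0.884% and 0.790% in WT day 0, 0.522% and 0.458% in null day 0, 2.59% and 2.12% in WT day 15 and 0.951% and 1.40% in null day 15 mice, so that it stayed a minor chain where it rose. The ratio of type I to type II chains per length was 1.35 and 1.12 in WT day 0, 1.28 and 0.856 in null day 0, 1.79 and 1.90 in WT day 15 and 1.88 and 2.17 in null day 15 mice. The 4 treated mice had the higher ratios.

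At day 15 the WT mice lay below the null mice in *Krt8*, *Krt18*, *Krt19* and *Krt20*, with log2 differences of -0.44 to -0.77 and adjusted p-values from 0.219 to 0.535. The median log2 difference of the 12 columnar epithelium markers was of similar size (-0.67, 0 called by edgeR). Per 1000 CPM of those markers, *Krt8* was at 792 and 928 CPM in WT and at 714 and 807 CPM in null mice at day 15, which overlap, and *Krt19* was at 1029 and 1208 CPM in WT and at 916 and 1166 CPM in null mice, which also overlap.

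Squamous keratins stayed at low levels in every mouse, with at most 258 counts over all of them in a library. Of 9 squamous keratins in the table, 6 were tested. Summed, the 9 were at 14.3 and 12.7 CPM in WT day 0, 17.7 and 15.1 in null day 0, 14 and 19.7 in WT day 15 and 31.8 and 34.5 CPM in null day 15 mice. That sum was 0.115% to 0.203% of the sum of the simple keratins in the same library, and the highest share was that of null day 15 replicate 2. The member that set the rise in that mouse was *Krt14*, the type I keratin of basal cells, with 101 counts (13.5 CPM), where the other 7 mice had 0 to 20 counts (0 to 2.33 CPM). *Krt14* was called higher at day 15 in null mice (log2 3.61, SE 0.99, adjusted p = 0.0421) and on average over the genotypes (adjusted p = 0.034). Both calls rest on that library and were lost without it. The average call was also lost without any 1 of the WT mice and without null day 0 replicate 2, and the call in null mice without any 1 of the untreated mice. In WT mice *Krt14* was at 0.98 and 0.79 CPM at day 0 and at 1.74 and 1.90 CPM at day 15 (adjusted p = 0.559), and 13.9% of its transcript windows are shared with *Krt16* and *Krt17*.

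Of 12 squamous keratin and desmosome members, 6 were highest in null day 15 replicate 1, 3 in WT day 15 replicate 2, and 1 each in null day 15 replicate 2, WT day 15 replicate 1 and null day 0 replicate 2. Null day 15 replicate 1 was also the highest for 5 of 14 simple keratin and desmosome members and had the highest summed columnar markers. The most abundant squamous member was *Pkp1*, at 33.4 to 88.7 CPM, and it overlapped between all groups compared. *Dsg3*, the desmoglein of basal squamous cells, had 21 counts in WT day 15 replicate 1, 3 in replicate 2, 1 in null day 15 replicate 1 and 0 in the other 5 mice. *Dsc3*, a desmocollin of the same cells, had 14 counts in WT day 15 replicate 2 and 0 to 6 in the other mice. Both treated WT mice had counts for *Dsg3*, *Dsc3* and *Krt14*, and the highest counts of the 3 genes were in 3 different mice. Of 13 squamous markers outside the members in the table (23 listed), 4 to 5 were at 0 in replicate 2 of both untreated groups, 1 in replicate 1 of both null groups and 0 in the other 4 libraries; *Lgals7*, *Crnn* and *Bnc1* had 0 to 11 counts per mouse. The sum of the 13 was 280 to 1335 CPM, and in untreated mice it came mostly from *Tgm3* (718 to 1188 CPM), a transglutaminase that cross-links envelope proteins. *Tgm3* fell in WT mice to 46.2 and 64.9 CPM (log2 -4.10, SE 0.65, adjusted p = 0.0103), below the 1145 and 246 CPM of treated null mice (log2 -3.65, SE 0.64, adjusted p = 0.0234). *Ly6d*, a surface protein of squamous cells, rose in WT mice (log2 3.13, SE 0.61, adjusted p = 0.0185) and in null mice (log2 1.89, SE 0.55, adjusted p = 0.0498). Of the 10 tested markers, 3 rose over both genotypes, *Ly6d*, *Tgm1* and *Dmkn*, and 1 fell, *Tgm3* (log2 -2.23, SE 0.42, adjusted p = 0.0057). The change of *Tgm3* was called different between the genotypes by DESeq2 (adjusted p = 6.33e-05) but not by edgeR (log2 -3.73, SE 0.84, adjusted p = 0.324). *Tgm1* was at 0 to 2.78 CPM at day 0 and 1.24 to 16.4 CPM at day 15 (log2 2.27, SE 0.64, adjusted p = 0.0262). *Dmkn* was at 1.08 to 2.13 CPM and at 3.06 to 4.81 CPM (log2 1.39, SE 0.40, adjusted p = 0.0285). *Asprv1*, at 0.40 to 1.08 CPM at day 0 and 1.09 to 9.39 CPM at day 15, missed the threshold (adjusted p = 0.0508) and was called by DESeq2. *Anxa8* was at 31.5 to 169 CPM and was called by DESeq2 in WT mice alone. *Serpinb5*, at 63.9 to 161 CPM, was lower at day 15 under the fold threshold (log2 -0.59, SE 0.19, adjusted p = 0.0439). For the genes with few counts, a trace of anal squamous tissue and low expression by colon cells cannot be told apart. *Tgm3*, *Serpinb5* and *Pkp1* were at higher levels in every untreated mouse, and the cells they came from were not tested.

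**Figure D3:**
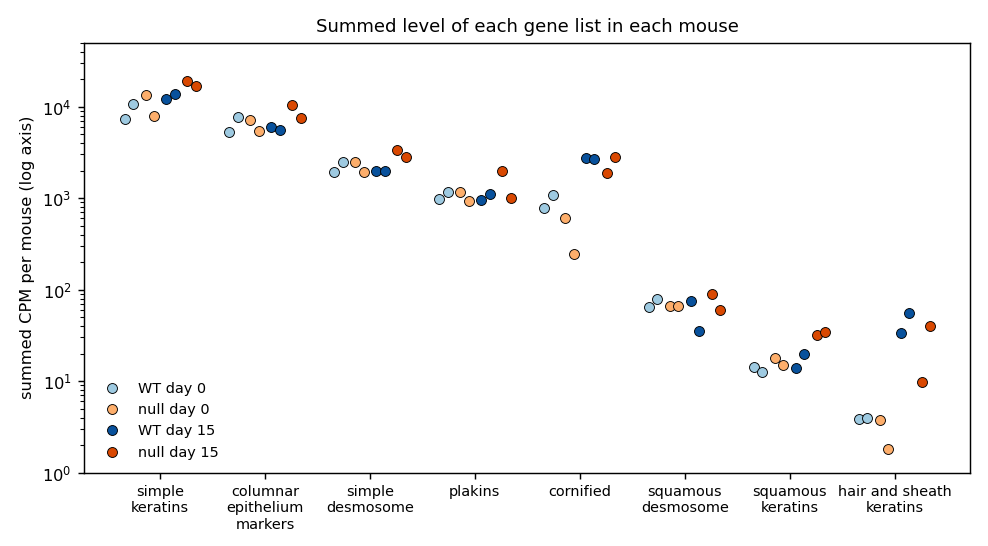
Summed CPM (log axis) of 7 member lists and of the columnar epithelium markers in each mouse, by group. Simple keratins (7296 to 19178 CPM) and columnar markers lie far above the squamous keratins (12.7 to 34.5 CPM) in every mouse, and cornified genes and hair keratins are higher in all 4 treated mice than in the untreated ones.

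Within the squamous list, *Krt13* was the one that rose in both genotypes. It is a type I keratin of non-cornified squamous epithelia such as those of the mouth and oesophagus. *Krt13* had 1 and 0 counts in WT day 0, 1 and 0 in null day 0, 43 and 97 in WT day 15 (3.74 and 10.2 CPM) and 9 and 33 in null day 15 mice (1.40 and 4.41 CPM). The ratio of day 15 to day 0 was 85.0 in WT mice (95% counting interval 15 to 3379) and 45.1 in null mice (7.67 to 1824), with adjusted p-values of 0.0165 and 0.0265. At day 15 the genotypes overlapped (adjusted p = 0.324). Each call was lost without either untreated mouse of its genotype or without replicate 2 of its treated group. *Krt17*, a keratin of hair follicles and wounded skin, was at 5.09 and 7.14 CPM in WT day 0, 8.04 and 4.67 in null day 0, 3.39 and 1.69 in WT day 15 and 13.6 and 8.42 CPM in null day 15 mice. The treated genotypes did not overlap, and the difference of -2.10 (log2, SE 0.53) missed the threshold in edgeR (adjusted p = 0.0612) and passed it in DESeq2 (adjusted p = 0.0099). *Krt10*, a keratin of the upper layers of skin, was at 1.91 to 8.62 CPM and passed no test.

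The remaining squamous keratins were near the limit of detection. *Krt6b* had 0 counts in all untreated mice, 9 and 20 in WT day 15 and 0 and 11 in null day 15 mice; it was at least 5.87-fold higher at day 15 in WT and at least 3.94-fold in null mice (against 3 counts over the group), and 50.1% of its windows are shared with other genes. *Krt15* had 0 to 12 and *Krt16* 0 to 16 counts per mouse. *Krt12*, whose exons overlap another gene over 54.4% of their length, had 0 to 17 counts and *Krt78* had 1 to 29. Of these, only *Krt12* and *Krt78* passed the filter on low counts, and neither was called. At day 15 *Krt12* had 3 and 3 counts in WT and 17 and 11 in null mice, and *Krt78* had 4 and 5 against 29 and 9. Both were lower in WT at an unadjusted p under 0.05 by edgeR, as were *Krt14* and *Krt17*, where 23.2% of all genes passed in either direction. Of the 6 tested squamous keratins, 5 were lower and 1 was higher in treated WT mice (median log2 difference -2.11).

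Keratins known from hair and nail rose with treatment as well. *Krt36*, a type I hair keratin, was at 2.16 and 2.38 CPM in WT day 0, 2.13 and 0.72 in null day 0, 21.3 and 25.5 in WT day 15 and 5.74 and 30.6 CPM in null day 15 mice. Its log2 change was 3.38 (SE 0.76, adjusted p = 0.0287) in WT and 3.44 (SE 0.76, adjusted p = 0.0242) in null mice, although the 2 treated null mice differed widely. Each call was lost without either untreated mouse of its genotype or without replicate 2 of its treated group. The same held for the call of *Krt84* in WT mice. *Krt84*, a type II hair keratin, was at 0.49 and 0.40 CPM in WT day 0, 1.07 and 0 in null day 0, 8.43 and 27.5 in WT day 15 and 2.64 and 7.22 CPM in null day 15 mice. It rose in WT mice (log2 5.22, SE 1.00, adjusted p = 0.0173) and did not pass by edgeR in null mice (log2 2.68, SE 0.90, adjusted p = 0.0736), where DESeq2 called it (adjusted p = 0.0157). The difference between these changes did not pass (adjusted p = 0.639 by edgeR). *Krt85* had 2, 1, 3 and 0 counts in the untreated mice, 36 and 20 in WT day 15 and 4 and 7 in null day 15 mice, and passed on average only (adjusted p = 0.0185), a call lost without WT day 0 replicate 1, null day 0 replicate 2 or null day 15 replicate 2. *Krt27* and *Krt222* had 0 to 10 counts per mouse and were not tested.

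Of 10 cornified genes in the table, 6 were tested, of which 3 rose in WT, 4 in null and 5 on average over the genotypes. *Sprr2a3*, the most abundant, is one of the *Sprr2a* copies, a gene known to respond to gut bacteria. It was at 770 and 1086 CPM in WT day 0, 598 and 246 in null day 0, 2695 and 2602 in WT day 15 and 1842 and 2785 CPM in null day 15 mice. The days did not overlap, and the log2 change was 1.51 (SE 0.44, adjusted p = 0.0611) in WT, 2.45 (SE 0.45, adjusted p = 0.0163) in null mice and 1.98 on average (SE 0.31, adjusted p = 0.003). DESeq2 called it in WT mice too (adjusted p = 0.00157), and so did edgeR scaled to the columnar markers, fitted to the groups compared only, or without either untreated null mouse. At day 0 the WT mice lay above the null mice (log2 1.13, unadjusted p = 0.0265, adjusted p = 0.774), and at day 15 they overlapped. The call in null mice was lost without replicate 2 of either null group. Since 61.1% of its transcript windows are shared with *Sprr2a1*, *Sprr2a2*, *Sprr2b* and a predicted gene, its count may hold reads of those copies.

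*Sprr1a*, a precursor of the cornified envelope, was at 3.23 and 4.76 CPM in WT day 0, 0.90 and 0.36 in null day 0, 16.6 and 32.8 in WT day 15 and 9.77 and 22.9 CPM in null day 15 mice. The log2 change was 2.69 (SE 0.57, adjusted p = 0.0245) in WT and 4.41 (SE 0.67, adjusted p = 0.0126) in null mice. The larger change in null mice came with a lower start: at day 0 the null mice lay below the WT mice (log2 2.32 in favour of WT, SE 0.70, unadjusted p = 0.0078, adjusted p = 0.774). The difference between the changes did not pass (log2 -1.72, SE 0.86, adjusted p = 0.615). The call in WT mice was lost without either untreated WT mouse or WT day 15 replicate 2, and that in null mice without null day 0 replicate 2.

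The other *Sprr2* genes had 0 to 3 counts in each untreated mouse. *Sprr2h* had 1 and 0 counts in WT day 0, 2 and 0 in null day 0, 142 and 167 in WT day 15 (12.3 and 17.6 CPM) and 4 and 32 in null day 15 mice (0.62 and 4.28 CPM). The ratio of day 15 to day 0 was 188 in WT (95% counting interval 33.4 to 7430, adjusted p = 0.0103) and 19.3 in null mice (4.98 to 166, adjusted p = 0.0424). Both treated WT mice lay above both treated null mice, and that difference of 2.58 (log2, SE 0.74) missed the threshold in edgeR (adjusted p = 0.0784) and was called by DESeq2. *Sprr2k*, next to it in sequence, had 3 and 0 counts in WT day 0, 0 and 0 in null day 0, 127 and 40 in WT day 15 and 3 and 63 in null day 15 mice. It was 33.8-fold higher in treated WT mice (11.4 to 165, adjusted p = 0.0641 by edgeR and 0.00374 by DESeq2, which called it) and at least 23.6-fold higher in treated null mice (adjusted p = 0.0424), and the treated genotypes overlapped. The WT call of *Sprr2h* was lost without either untreated WT mouse and its null call without any 1 mouse other than null day 15 replicate 1. The null call of *Sprr2k* was lost without either untreated null mouse, WT day 0 replicate 2 or null day 15 replicate 2.

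*Sprr2b* had 2, 2, 1 and 0 counts in the untreated mice, 118 and 30 in WT day 15 and 8 and 12 in null day 15 mice, with a rise in WT mice (adjusted p = 0.0297) and an adjusted p of 0.0521 by edgeR in null mice, where DESeq2 called it (adjusted p = 0.0374). The WT call was lost without either untreated WT mouse or WT day 15 replicate 1. *Sprr2d*, *Sprr2e*, *Sprr2f* and *Sprr2g*, all under the filter on low counts, had 0 counts in all 4 untreated and both treated null mice. In the 2 treated WT mice they had 32 and 12, 9 and 0, 15 and 1, and 6 and 2 counts. For *Sprr2d* the WT mice at day 15 were at least 9.74-fold above the null mice, against 3 counts over the group, and at least 8.90-fold above untreated WT mice. *Lor*, loricrin, the main protein of the skin envelope, was at 0 to 6.01 CPM and passed no test (44 of its counts were in null day 0 replicate 1).

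**Figure D4:**
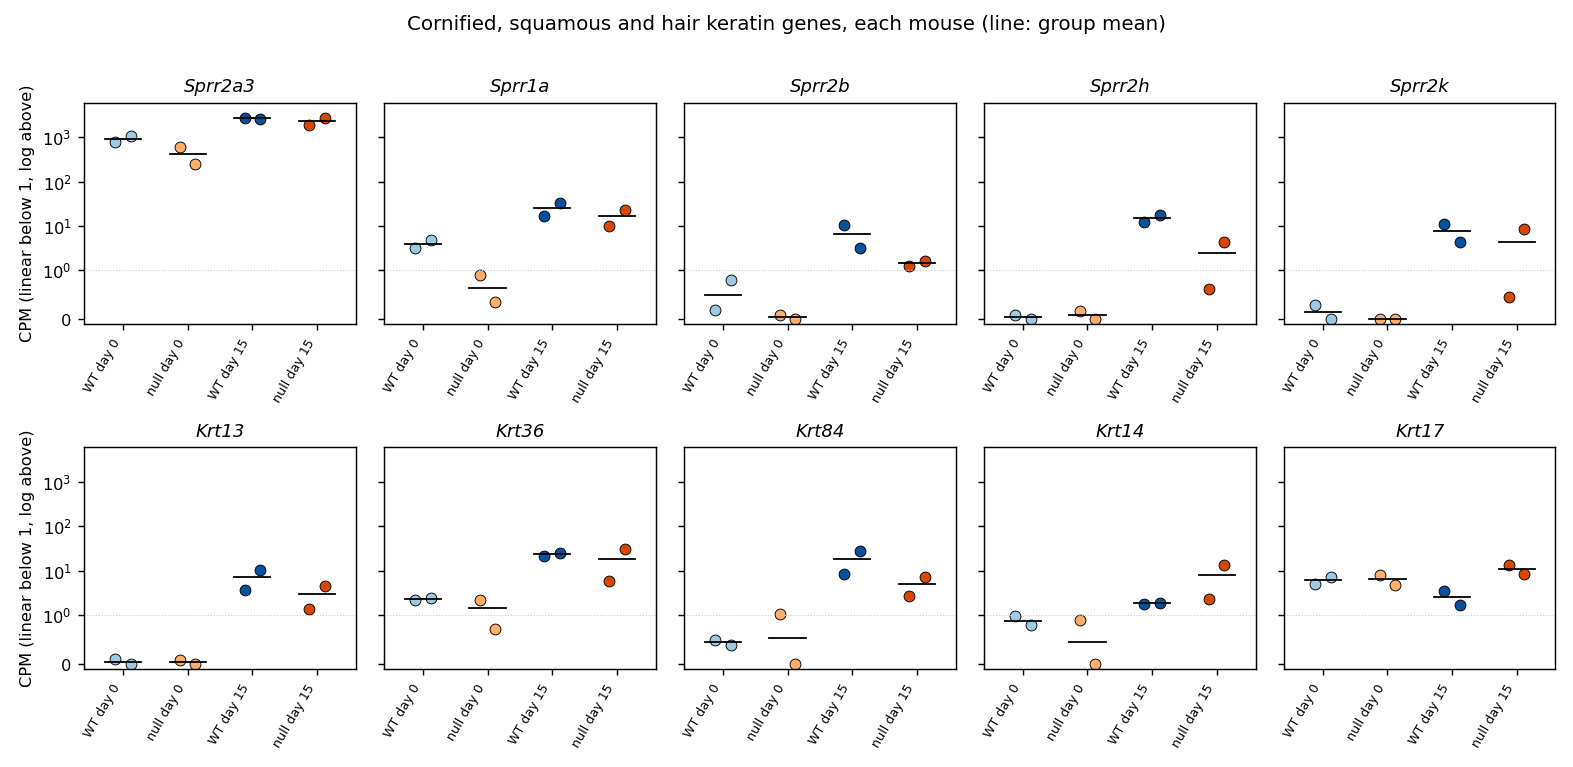
CPM (linear below 1, log above) of 10 cornified, squamous and hair keratin genes in each of the 8 mice by group, with a line at each group mean. The Sprr genes, Krt13, Krt36 and Krt84 are higher in all 4 treated mice than in all 4 untreated mice; Krt14 stands out in 1 null mouse at day 15 (13.5 CPM), and Krt17 is lower in treated WT (1.69 and 3.39 CPM) than in treated null mice (8.42 and 13.6 CPM).

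Of 7 desmosome genes of simple epithelium (*Dsg2*, *Dsc2*, *Dsp*, *Jup*, *Pkp2*, *Pkp3*, *Pkp4*), 0 were called in any comparison by edgeR with all 8 libraries and the filter on low counts. *Pkp4* passed on p in null mice (adjusted p = 0.0287 by edgeR) and missed on size, and without that filter edgeR called it there. DESeq2 called 1, *Dsg2* between the genotypes at day 15. Between the days, *Pkp4* had an unadjusted p under 0.05 in each genotype and over both, *Dsg2* in null mice (log2 0.97, SE 0.31, adjusted p = 0.0621) and *Dsp* in WT mice (log2 -0.65, SE 0.28, adjusted p = 0.168). *Pkp4*, a plakophilin of cell junctions also called p0071, was at 62.5 and 59.1 CPM in WT day 0, 53.2 and 56.4 in null day 0, 98.8 and 117 in WT day 15 and 93.6 and 125 CPM in null day 15 mice. The days did not overlap in either genotype, and its average log2 change of 0.91 (SE 0.17, adjusted p = 0.0051) had the smallest adjusted p in the list but was under the fold threshold. *Jup*, plakoglobin of the plaque, was at 287 to 514 CPM at day 0 and 400 to 539 CPM at day 15, and overlapped throughout. *Dsc2*, *Pkp2* and *Pkp3* were at 56.9 to 155, 43.4 to 71.7 and 62.9 to 143 CPM over the 8 mice, and none had an adjusted p under 0.05 in any comparison.

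*Dsg2*, the desmoglein of simple epithelia, was at 665 and 821 CPM in WT day 0, 906 and 614 in null day 0, 598 and 681 in WT day 15 and 1668 and 1310 CPM in null day 15 mice. The null mice at day 15 lay above all other mice. WT mice were below null mice at day 15 by 1.22 on the log2 scale (SE 0.31), with an adjusted p of 0.0613 in edgeR and 0.00177 in DESeq2. *Dsp*, desmoplakin, which ties the plaque to keratin, was at 619 and 817 CPM in WT day 0, 858 and 666 in null day 0, 497 and 421 in WT day 15 and 785 and 691 CPM in null day 15 mice. Treated WT mice were thus the lowest of the 4 groups without overlap, but the log2 difference of -0.69 from null mice (SE 0.28) did not pass (adjusted p = 0.179). Scaled to the columnar markers, the *Dsg2* difference was -0.50 (adjusted p = 0.368), and the median of all genes went from 0.035 to 0.71.

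**Figure D5:**
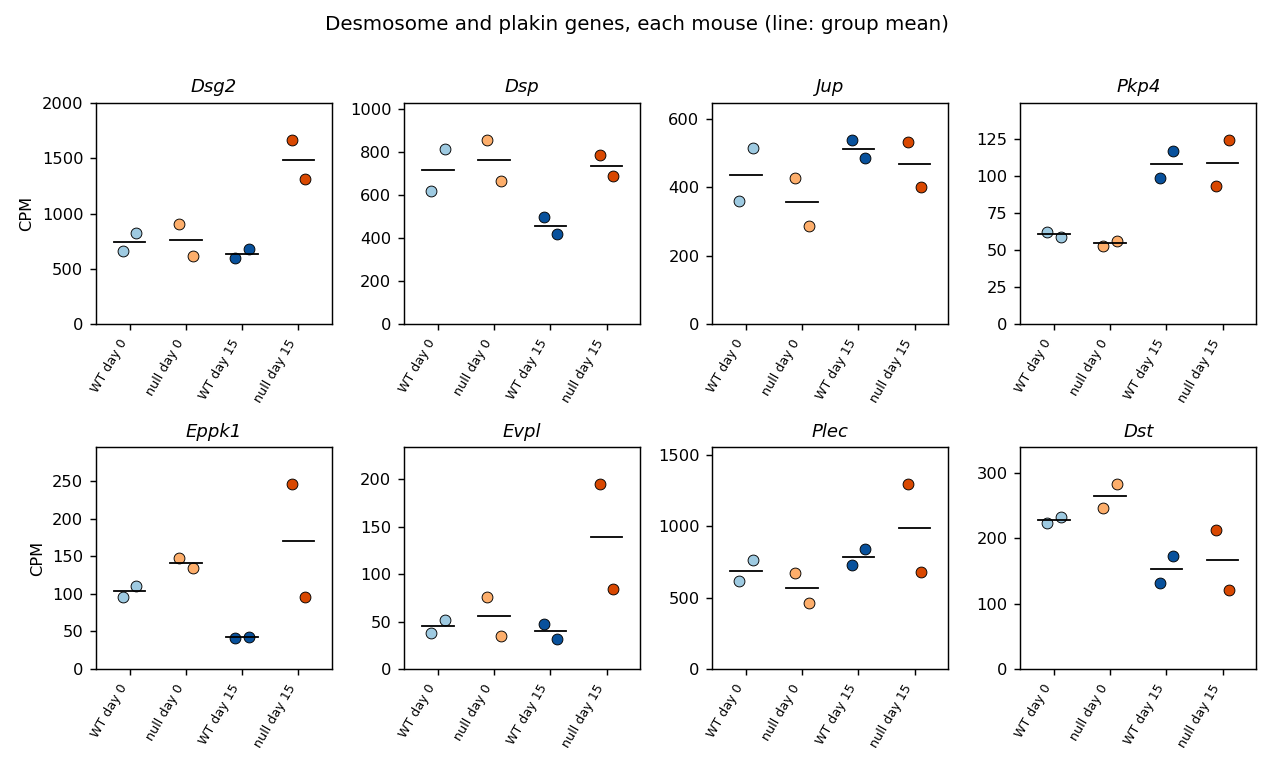
CPM (linear axes starting at 0, one scale per gene) of 4 desmosome and 4 plakin genes in each of the 8 mice by group, with a line at each group mean. Dsg2, Eppk1 and Evpl are lower in treated WT than in treated null mice without overlap, Pkp4 is higher and Dst lower in all 4 treated mice than in the untreated ones, and the 2 treated null mice lie far apart for Eppk1, Evpl and Plec.

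Among the plakins, *Eppk1* was the one member called between the genotypes. *Eppk1* encodes epiplakin, a protein of plakin repeats that binds and organises keratin filaments. It was at 96.3 and 111 CPM in WT day 0, 147 and 134 in null day 0, 41.7 and 43.0 in WT day 15 and 246 and 95.4 CPM in null day 15 mice. Both treated WT mice lay below all other mice, and the treated null mice lay on either side of the untreated ones. At day 15 the log2 difference between WT and null mice was -2.01 (SE 0.38, adjusted p = 0.0292). Without null day 15 replicate 1 the difference was -1.18, and without replicate 2 of that group it was -2.54. Scaled to the columnar markers it was -1.16 (adjusted p = 0.115). That scaling took the median of all genes from 0.035 to 0.71. Without either null day 0 mouse or either WT day 15 mouse the difference stayed at -1.99 to -2.03. The call was lost in these 1-mouse fits, where fewer of all genes were called too. Over all alternatives the adjusted p ran from 2.8e-05 to 0.143. From day 0 to day 15 *Eppk1* changed by -1.29 in WT mice (SE 0.38, adjusted p = 0.0627 by edgeR, called by DESeq2) and by 0.28 in null mice (SE 0.37, adjusted p = 0.637), and the difference of these changes did not pass (log2 -1.56, SE 0.53, adjusted p = 0.456).

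*Eppk1* lies on chromosome 15 at 76101481 to 76120195 (GRCm38), 0.357 Mb from *Hsf1*, and *Plec* lies between them, 0.245 Mb from *Hsf1*. The mice were of mixed background, and alleles inherited together with the null allele near *Hsf1* cannot be told apart from loss of *Hsf1* itself in these data. *Plec*, plectin, a cross-linker of keratin with hemidesmosomes and actin, was at 616 and 765 CPM in WT day 0, 675 and 463 in null day 0, 726 and 840 in WT day 15 and 1293 and 679 CPM in null day 15 mice. The genotypes overlapped on both days for *Plec* (adjusted p = 0.607 at day 15).

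*Evpl*, envoplakin, was at 37.9 and 52.0 CPM in WT day 0, 76.1 and 35.2 in null day 0, 47.8 and 31.3 in WT day 15 and 194 and 84.1 CPM in null day 15 mice. At day 15 WT mice were lower by 1.81 on the log2 scale without overlap (SE 0.46), with an adjusted p of 0.0624 in edgeR and 0.00177 in DESeq2. Its binding partner in the envelope, periplakin (*Ppl*), was at 6.76 to 14.3 CPM and differed by 0.00 (log2, SE 0.36) between the treated genotypes. *Dst*, dystonin, was at 223 to 282 CPM in untreated and 121 to 213 CPM in treated mice, the one tested member below day 0 in all 4 treated mice, with an average log2 change of -0.62 (SE 0.21, adjusted p = 0.0476) under the fold threshold. Its isoforms include forms of muscle and nerve, and the summed smooth muscle markers were lower in the treated than in the untreated mice; their part in the *Dst* change was not tested.

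Genes that act with the members were described by the same calls. Of 12 partners in junctions and hemidesmosomes (such as *Itga6*, *Itgb4*, *Perp* and *Ctnnb1*), 0 were called in any comparison by edgeR, with medians of -0.20 in WT and 0.23 in null mice for the change with treatment. Over both genotypes 4 of the 12 had an unadjusted p under 0.05 by edgeR, where 43% of all genes did. DESeq2 called 0 of them there, against 17.5% of all genes. It called 1 in WT mice (*Cdh3*, lower, against 12.6% of all genes) and 1 in null mice (*Fbf1*, higher, against 16.6%). Of 14 tested genes for other intermediate filaments, the nuclear lamin *Lmnb1* rose in WT (log2 1.31, SE 0.31, adjusted p = 0.033) and null mice (log2 1.19, SE 0.31, adjusted p = 0.0383), and *Prph*, peripherin of enteric nerves, rose in null mice (log2 1.57, SE 0.42, adjusted p = 0.0398). *Nes*, nestin, rose over both genotypes (log2 2.31, SE 0.54, adjusted p = 0.0129). The muscle filament genes *Synm* and *Des* fell in WT mice, by 1.84 (SE 0.26, adjusted p = 0.0075) and 1.80 (SE 0.38, adjusted p = 0.0245) on the log2 scale, and *Synm* was lower in WT than in null mice at day 15 (log2 -1.28, SE 0.26, adjusted p = 0.034). Of 11 tested regulators of epithelial differentiation, *Klf4*, a factor of mature colon cells, fell in WT mice (log2 -2.36, SE 0.42, adjusted p = 0.0146). Over both genotypes *Klf4* and *Grhl2*, a factor of epithelial junction genes, fell, and *Grhl2* did so by 1.29 on the log2 scale (SE 0.26, adjusted p = 0.007) without passing in WT or null mice alone (adjusted p = 0.0508 and 0.0505). *Ovol2*, a repressor that keeps cells epithelial, rose in null mice (log2 1.19, SE 0.35, adjusted p = 0.0497) and was lower in WT than in null mice at day 15 (log2 -1.55, SE 0.35, adjusted p = 0.045). Neither *Klf4* nor *Ovol2* passed the test of the difference in change between genotypes.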

How the data were processed

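Poly-A RNA of distal colon from 8 mice was sequenced with a SENSE mRNA-seq kit. The authors aligned reads to mm10 with STAR and deposited raw counts per gene symbol; the counting program and annotation are not given in the sources used here. They also deposited the same counts divided by a DESeq2 size factor per sample, a normalized signal that was not tested. Samples were grouped by the genotype and day in the labels. The counts were fitted with edgeR 4.0.16 (R 4.3.3): TMM normalization, 1 model of 4 groups, genes with a mean normalized count above 5, quasi-likelihood tests, and Benjamini-Hochberg adjustment over all 14371 tested genes in each comparison. A call needed both an absolute log2 fold change above 1 and an adjusted p under 0.05, as in the study's methods. Standard errors are the log2 fold change divided by the square root of F. DESeq2 1.42.0 and other settings were alternatives. The fits and the motif search were tested on simulated data.

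The members and all gene lists were chosen with earlier results of these data known. The comparison of days averaged over the genotypes was added after the data were seen. The text names every member that was called, a list of principal keratin, desmosome, plakin and cornified genes whatever their values, and partner genes that were called; *Krt6b*, *Krt12*, *Krt15*, *Krt16*, *Krt27*, *Krt78*, *Krt80*, *Krt222* and *Dsg3* are given to account for the other members, and *Tgm3*, *Ly6d*, *Tgm1*, *Dmkn*, *Asprv1*, *Anxa8*, *Serpinb5*, *Lgals7*, *Crnn* and *Bnc1* were chosen after their values were seen. A fold change against a group with 0 counts is a lower bound against 3 counts over the group, and against 1 to 3 counts a ratio with an exact 95% interval, both for counting error only. With 2 mice a group the smallest exact two-sided permutation p for a single value is 0.333. Of the 46 symbols, 45 matched GENCODE M21 (GRCm38), from which positions and transcript lengths were taken; promoters came from RefSeq (250 bases before and 50 after the start).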

Additional observations from a re-analysis of the deposited data

How the results depend on the processing

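Members called between the days averaged over the genotypes numbered 11, 9 to 15 under the other settings and 9 to 14 with each mouse left out; with no fold threshold the 15 include *Dst*, which fell. Counts within 1 genotype were less stable. DESeq2 called 5 members between the treated genotypes in place of 1 (adding *Dsg2*, *Evpl*, *Krt17* and *Sprr2h*) and 13 in null mice in place of 8. Scaling to the columnar epithelium markers, or fitting only the groups compared, left 0 between the treated genotypes; the former took the median of all genes from 0.035 to 0.71 there and from 0.052 to -0.53 for the days in null mice. Thinning to the smallest library gave 4 calls in WT mice, all among the 7, and 5 in null mice, 4 of them among the 8 (*Krt84* was added). With each mouse left out, counts were 0 throughout between the untreated genotypes and ran from 0 to 4 between the treated genotypes, 0 to 9 in WT mice (0 without either untreated WT mouse), 0 to 9 in null mice (0 without null day 0 replicate 2, 1 without null day 15 replicate 2) and 0 to 1 for the difference in change (*Eppk1*, without null day 15 replicate 2). Where 1 mouse was left in a group, it was assumed to vary like the other groups. Where the member count within a genotype fell to 0 or 1, fewer of all genes were called as well. With the replicate number as a block, 5 members rose in null mice in place of 8 (without *Krt14*, *Sprr2h* and *Sprr2k*); same-numbered mice are different animals, and the correlation of their deviations was between -0.29 and 0.15, so the numbers do not pair them. Of 445 recomputed values of called members, 365 kept their call, 80 lost it and 0 changed sign. Depth limits the members with few counts: 3 counts were 0.246 to 1.19 CPM.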
